A study of Sus scrofa with 15 samples.

Results

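The circadian clock genes were examined in liver RNA of growing piglets given lipopolysaccharide (LPS) or saline. The set was drawn up as 10 genes, namely PER1, PER2, PER3, CRY1, CRY2, CLOCK, NR1D1, NR1D2, DBP and NFIL3, and its members were found by matching the Ensembl gene identifiers of the count table to pig gene symbols. Of the 10 listed genes, 9 had a row among the 31908 genes of the table. PER3 had no identifier paired with its symbol and was not analysed here.

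The animals were male crossbred piglets of Duroc, Large White and Landrace descent, all without any genetic modification named in the labels. The LPS group received 80 μg of LPS per kg of body weight by injection into the peritoneal cavity, and the CON group received sterile saline by the same route. LPS is the outer membrane component of Gram-negative bacteria and is used as a model of bacterial challenge. Liver was taken 4 h after injection. The values are read counts of the fragmented polyadenylated RNA that had not been immunoprecipitated (input) in a study of N6-methyladenosine, with 3 libraries in each group. The sources used here do not give the time of day of injection and sampling or the feeding state of the animals, although both are known to set the level of clock transcripts in liver.

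The circadian clock is a transcriptional feedback loop. CLOCK and its partner BMAL1 activate the PER and CRY genes, whose protein products then repress that activation, while NR1D1 and NR1D2 (REV-ERB alpha and beta) repress BMAL1. DBP and its relatives activate genes of rhythmic liver metabolism through D-box elements, and NFIL3 competes with them as a repressor. In liver, the PER genes are also known to respond directly to feeding, glucocorticoids and inflammatory signals.

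Libraries held between 4348478 and 19967417 counts, and LPS replicate 3 was the deepest. Across genes, log2(CPM + 1) correlated at 0.951 to 0.961 between CON libraries, where CPM is the read count scaled to a library size adjusted by the trimmed mean of M values (TMM). LPS replicate 2 correlated at 0.932 to 0.954 with the CON libraries but at 0.920 and 0.863 with LPS replicates 1 and 3, so it stood nearer to the CON libraries than to those of its own group. The hepatocyte list summed to 76075 to 98980 CPM in CON and to 63993, 65404 and 129988 CPM in LPS replicates 1 to 3. None of its 10 genes was at 0 throughout, but SERPINA1 held only 1.23 to 7.20 CPM. Estimates in LPS were higher for 4 and lower for 6. ALB and CYP2E1 lay below the CON range in every LPS library. FGB, which is part of the sums, was at 8098 to 12715 CPM in CON and at 21935, 14561 and 44960 CPM in LPS. These genes were named after their values were seen. Neutrophil markers summed to 21.1 to 31.1 CPM in CON and to 171, 85.4 and 309 CPM in LPS replicates 1 to 3, and S100A8 was the gene of that list called by edgeR. In whole liver, fewer cells of a type and less RNA per cell cannot be told apart, and the part of these marker changes in the values below was not tested.

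None of the 9 clock genes passed the test between groups, which was edgeR's quasi-likelihood test with Benjamini-Hochberg adjustment over 12774 genes, at an adjusted p under 0.05 and a fold above 1.5. Few genes did in this fit: 7 were called in all, or 0.0548% of those tested, each of them higher in LPS. At an unadjusted p under 0.05, PER1 and NR1D1 stood out, both higher in LPS, which is 2 of 9 members beside 12.5% of all genes. By direction alone, 7 members had a higher and 2 a lower estimate in LPS, with a median log2 fold change of 0.44 against 0.01 over all genes tested. In 0 of the 9 genes did the groups separate completely, where 6.52% of all genes had every LPS value above every CON value and 9.8% had every LPS value below.

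**Figure D1:**
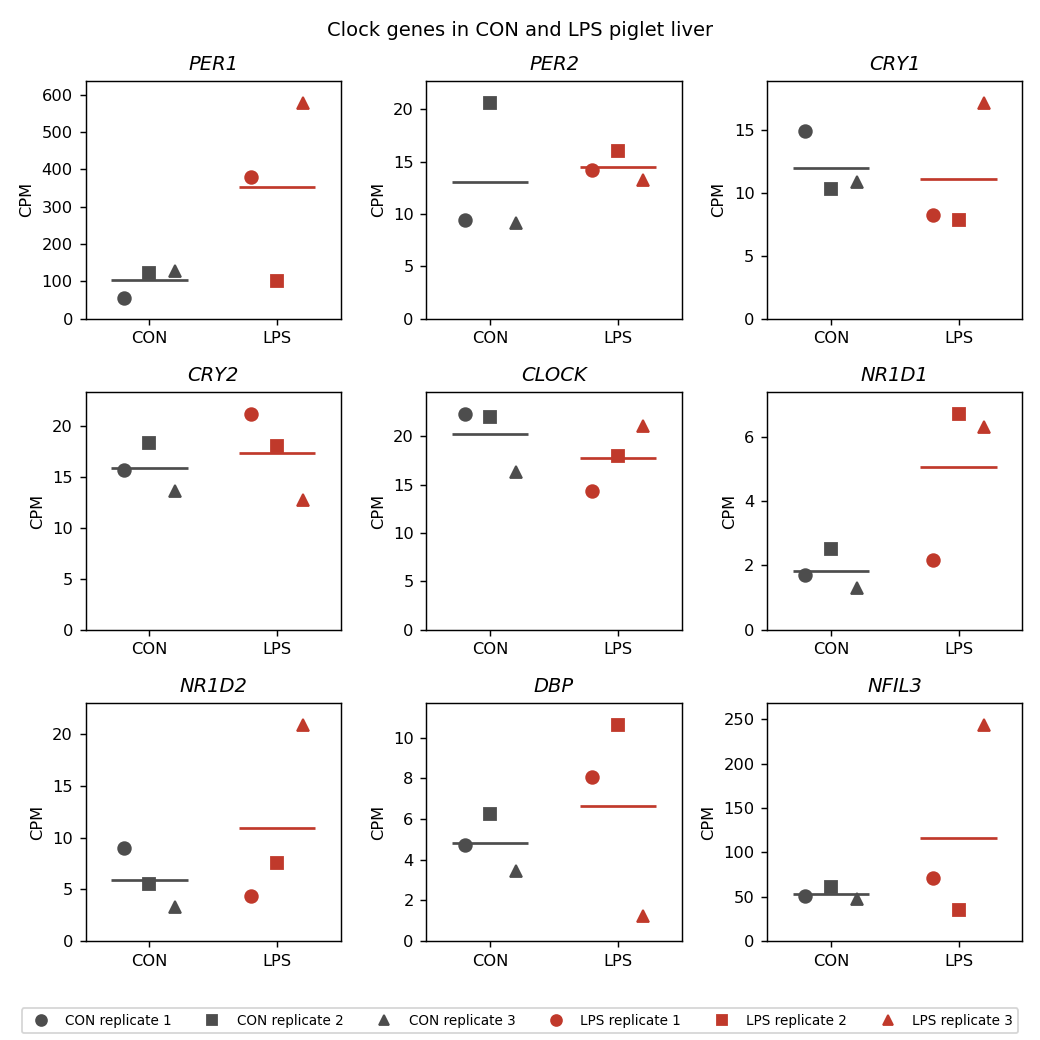
Level of each clock gene in each library, in CPM on a linear axis from 0, with CON in grey and LPS in red. Marker shapes give the replicate and horizontal lines the group means of 3 libraries. PER1 reached 579 CPM and NFIL3 244 CPM in LPS replicate 3, whereas CLOCK and CRY2 stayed between 12.7 and 22.3 CPM throughout.

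The period genes encode the PER proteins, the rate-limiting repressors of the loop. PER1 (ENSSSCG00000017983, chromosome 12, 53361868 to 53376611, minus strand) stood at 55.1, 124 and 129 CPM in CON replicates 1 to 3 and at 378, 101 and 579 CPM in LPS replicates 1 to 3. LPS replicates 1 and 3 lay above every CON library, and LPS replicate 2 lay inside the CON range. The mean was 103 ± 41.2 CPM in CON and 353 ± 240 CPM in LPS (SD, n = 3 each), and the fitted log2 fold change was 1.78 (SE 0.59, 95% interval 0.45 to 3.11, adjusted p = 0.270 with edgeR's quasi-likelihood test). PER1 rested on 616 to 8475 counts per library, so counting error was small beside the spread between libraries.

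The call on PER1 depended on the method and on the libraries used. With DESeq2 on the same genes, PER1 was the sole member called (log2 fold change 1.82, adjusted p = 0.0462), where 3.16% of all genes were called. That call was lost when any of the 5 libraries other than LPS replicate 2 was left out of DESeq2, with an adjusted p = 0.121 to 0.446. Without the filter on low counts, edgeR's quasi-likelihood test called it at 1.75 and an adjusted p = 0.00189, with 3.76% of 23529 genes called. Without LPS replicate 2, edgeR called it at 2.23 and an adjusted p = 0.0131, with 7.2% of genes called. No clock gene was called by edgeR when any of the other 5 libraries was left out.

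PER2 (ENSSSCG00000016338, chromosome 15, 137793419 to 137837236, minus strand), the close relative of PER1 in the same repressor complex, did not follow it. Its level was 9.38, 20.6 and 9.10 CPM in CON and 14.2, 16.0 and 13.2 CPM in LPS. Every LPS value fell inside the CON range. The log2 fold change was 0.16 (SE 0.40, 95% interval -0.72 to 1.04, adjusted p = 0.900 with edgeR). Within the libraries, the log2 ratio of PER1 to PER2 counts was 2.55, 2.58 and 3.82 in CON and 4.73, 2.65 and 5.45 in LPS, a difference of 1.29 that did not separate the groups (exact permutation p = 0.2, two-sided, where 3 against 3 libraries cannot give less than 0.1).

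The CON libraries already differed from each other in the period genes. The SD of log2 CPM within CON was 0.69 for PER1 and 0.65 for PER2, larger than in 91.6% and 89.4% of the genes tested, and the median gene had 0.34. The source of this spread was not the same library: PER1 was lowest in CON replicate 1, while PER2 was highest in CON replicate 2. Within LPS, the SD for PER1 was 1.31 (above 94.4% of genes) and for PER2 0.14 (above 5.52%).

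The cryptochromes CRY1 and CRY2, partners of the PER proteins and direct repressors of CLOCK and BMAL1, were near level between the groups. CRY1 (ENSSSCG00000000164, chromosome 5, 13275544 to 13364594, plus strand) stood at 14.9, 10.3 and 10.9 CPM in CON and at 8.29, 7.85 and 17.2 CPM in LPS. LPS replicates 1 and 2 were below and LPS replicate 3 was above every CON library, but their counting error overlapped that of CON. By exact 95% Poisson intervals, LPS replicates 1 and 2 reached up to 11.4 and 10.4 CPM, and CON replicate 2 down to 7.97 CPM. LPS replicate 3 reached down to 15.1 CPM and CON replicate 1 up to 17.4 CPM. Its log2 fold change was -0.10 (SE 0.40, 95% interval -1.0 to 0.80, adjusted p = 0.945 with edgeR), and without LPS replicate 3 it was -0.56.

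CRY2 (ENSSSCG00000013270, chromosome 2, 16585966 to 16620405, minus strand) had 15.6, 18.3 and 13.5 CPM in CON and 21.2, 18.0 and 12.7 CPM in LPS. LPS replicate 1 lay above and LPS replicate 3 below every CON library, the opposite of CRY1 in both, but counting error overlapped here too. The Poisson interval of LPS replicate 1 was 17.2 to 25.8 CPM, beside 15.1 to 21.9 CPM in CON replicate 2. That of LPS replicate 3 was 10.9 to 14.7 CPM, beside 11.4 to 16.0 CPM in CON replicate 3. The log2 fold change was 0.12 (SE 0.33, 95% interval -0.61 to 0.86, adjusted p = 0.910 with edgeR). The log2 ratio of CRY1 to CRY2 was -0.07, -0.82 and -0.32 in CON and -1.34, -1.19 and 0.44 in LPS (difference -0.30, exact permutation p = 0.7), so LPS replicates 1 and 2 lay below and LPS replicate 3 above the CON range.

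CLOCK (ENSSSCG00000008909, chromosome 8, 54788864 to 54910146, minus strand), the activating subunit, had among the narrowest intervals of the set. It stood at 22.3, 22.0 and 16.3 CPM in CON and at 14.4, 18.0 and 21.0 CPM in LPS. The groups overlapped, with LPS replicate 1 alone below the CON range. The log2 fold change was -0.18 (SE 0.31, 95% interval -0.88 to 0.52, adjusted p = 0.847 with edgeR). Its partner BMAL1, named here after its values were seen, gave 22.9, 17.3 and 13.2 CPM in CON and 10.5, 20.5 and 21.6 CPM in LPS, with a log2 fold change of -0.01 (SE 0.38, adjusted p = 0.994 with edgeR). In both genes, LPS replicate 1 was the lowest of the 6 libraries.

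The nuclear receptor NR1D1 (ENSSSCG00000036933, chromosome 12, 22263657 to 22271643, plus strand), the haem-binding repressor of BMAL1, had the lowest level per kilobase of the members in CON. It stood at 1.70, 2.50 and 1.29 CPM in CON and 2.18, 6.71 and 6.28 CPM in LPS. LPS replicates 2 and 3 lay above every CON library, and LPS replicate 1 lay inside the CON range, which is a different split from that of PER1. The log2 fold change was 1.5 (SE 0.53, 95% interval 0.31 to 2.70, adjusted p = 0.301 with edgeR), and it ranged from 1.29 to 1.85 when each library was left out of edgeR in turn.

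NR1D1 rested on few reads, from 10 in LPS replicate 1 to 92 in LPS replicate 3. The 10 reads of LPS replicate 1 allowed 1.05 to 4.01 CPM by an exact 95% Poisson interval, which covers counting error only. The 41 reads of LPS replicate 2 allowed 4.81 to 9.10 CPM, and the highest upper bound in CON was 4.06 CPM. NR1D1 also shares 474 exon bases with THRA on the opposite strand, and the sources used here do not give whether the counting used strand, so reads of this stretch are uncertain. THRA itself stood at 71.2, 122 and 78.0 CPM in CON and at 62.1, 90.0 and 24.0 CPM in LPS. Both genes were highest in replicate 2 within CON and in replicate 2 within LPS. In LPS replicate 3, however, THRA was at its lowest and NR1D1 near its highest. The part of THRA reads in the NR1D1 values was not tested.

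NR1D2 (ENSSSCG00000027017, chromosome 13, 10756926 to 10791210, plus strand), the paralogue of NR1D1, had 9.03, 5.47 and 3.26 CPM in CON and 4.36, 7.53 and 20.9 CPM in LPS. LPS replicate 3 alone lay above the CON range. The log2 fold change was 0.91 (SE 0.59, 95% interval -0.42 to 2.24, adjusted p = 0.564 with edgeR) and was 0.03 without LPS replicate 3. The log2 ratio of NR1D1 to NR1D2 differed by 0.65 between groups (exact permutation p = 0.4).

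Of 5 ratios compared within libraries, that of NR1D1 to CLOCK was the sole one in which the groups did not overlap. It was -3.68, -3.10 and -3.62 on the log2 scale in CON and -2.66, -1.41 and -1.74 in LPS. Every LPS library thus held more NR1D1 reads per CLOCK read than any CON library. The nearest libraries, LPS replicate 1 and CON replicate 2, rested on 10 and 16 NR1D1 reads, so their order is uncertain from counting error alone. The difference was 1.53 and the exact permutation p = 0.1 was the smallest that 3 against 3 libraries can give, with a Benjamini-Hochberg value of 0.5 over the 5 ratios. The NR1D1 overlap with THRA touches this ratio too.

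**Figure D2:**
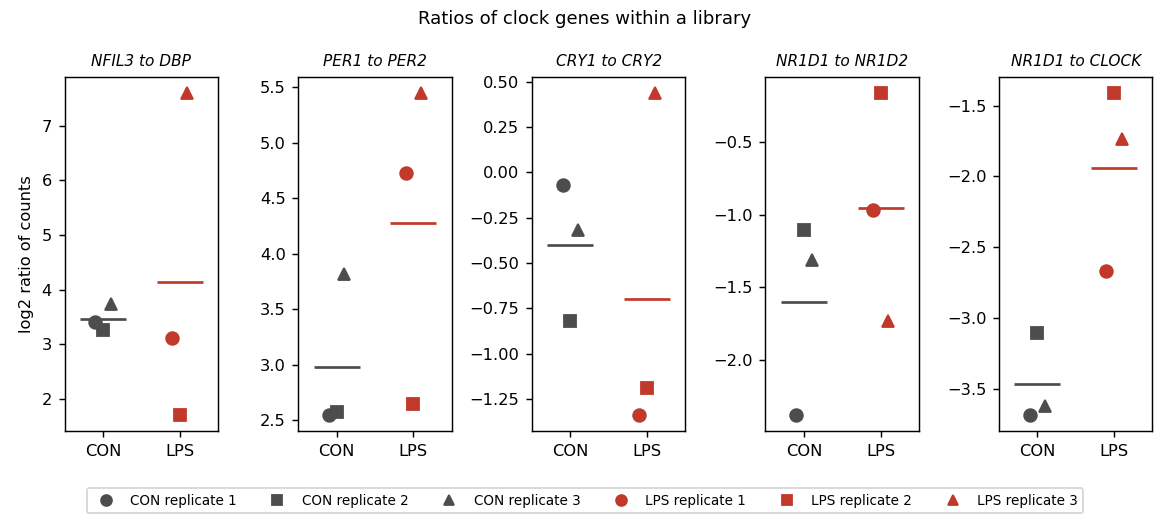
Log2 ratio of read counts between clock genes within each library, for 5 pairs, with CON in grey, LPS in red, marker shapes for replicates and lines for group means, each panel on its own axis. The NR1D1 to CLOCK ratio lies at -2.66 or above in LPS and at -3.10 or below in CON, while the NFIL3 to DBP ratio of LPS replicate 3 stands at 7.59.

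DBP and NFIL3 bind the same D-box element with opposite effect. DBP (ENSSSCG00000003148, chromosome 6, 53986959 to 53993020, minus strand), the activator, stood at 4.74, 6.25 and 3.46 CPM in CON and at 8.07, 10.6 and 1.23 CPM in LPS. LPS replicates 1 and 2 were above every CON library and LPS replicate 3 was below every one. The log2 fold change was 0.44 (SE 0.66, 95% interval -1.05 to 1.92, adjusted p = 0.822 with edgeR), the widest interval of the set. It was 0.99 without LPS replicate 3 and -0.15 without LPS replicate 2, so its direction depended on the libraries used.

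The low DBP value of LPS replicate 3 came from 18 reads, with an exact 95% Poisson interval of 0.73 to 1.94 CPM that lay below the interval of every other library, the lowest other bound being 2.41 CPM. DBP shares 161 exon bases with an unnamed gene on the opposite strand, which had 107 counts over all libraries. That gene stood at 1.07 to 1.58 CPM in CON and at 2.40 to 3.11 CPM in LPS.

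NFIL3 (ENSSSCG00000009592, chromosome 14, 2588891 to 2603255, minus strand), the repressor, which is also known as an immune and cytokine-responsive factor, had 50.7, 60.9 and 46.8 CPM in CON and 70.4, 34.8 and 244 CPM in LPS. LPS replicates 1 and 3 were above the CON range and LPS replicate 2 was below it. The mean was 52.8 ± 7.31 CPM in CON and 116 ± 112 CPM in LPS (SD, n = 3 each), with a log2 fold change of 1.14 (SE 0.61, 95% interval -0.22 to 2.51, adjusted p = 0.481 with edgeR). LPS replicate 3 decided this value, which was 0.01 without that library. Without LPS replicate 2, DESeq2 called NFIL3 at 1.62 and an adjusted p = 0.0126 along with PER1, where 11.4% of all genes were called, and edgeR gave 1.58 and an adjusted p = 0.0625.

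The balance of the D-box pair was even in CON and scattered in LPS. The log2 ratio of NFIL3 to DBP was 3.41, 3.27 and 3.74 in CON and 3.11, 1.70 and 7.59 in LPS. LPS replicates 1 and 2 lay below the CON range and LPS replicate 3 far above it, so the difference of 0.66 between the means did not hold against this spread (exact permutation p = 1). Within LPS, the SD of log2 CPM was larger than in 96.4% of genes for DBP and in 95.9% for NFIL3, whereas within CON it was larger than in 58.7% and 20.4%.

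**Figure D3:**
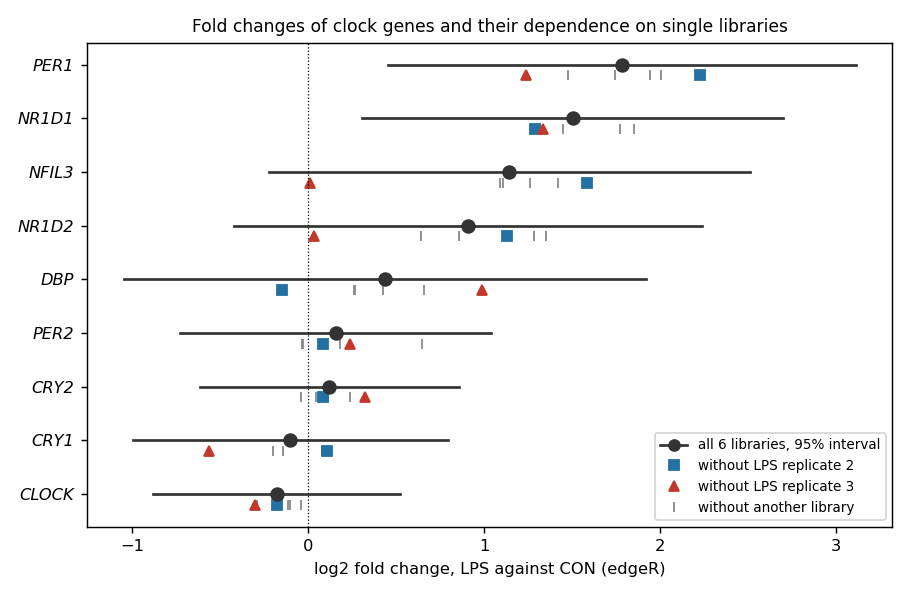
Log2 fold change of each clock gene, LPS against CON, by edgeR with its 95% interval (black), and the estimate with each library left out in turn (small marks below each line). NFIL3 and NR1D2 move to 0.01 and 0.03 without LPS replicate 3 (red triangles), and PER1 moves to 2.23 without LPS replicate 2 (blue squares).

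Per kilobase of exon, where levels can be compared between genes, NFIL3 (24.6 ± 3.40 CPM per kb) and PER1 (18.4 ± 7.38) were the most abundant members in CON, and their ranges overlapped. A gap followed, since the lowest PER1 value of 9.86 CPM per kb was above the highest CRY1 value of 3.92. CRY1, CRY2, DBP, CLOCK, PER2, NR1D2 and NR1D1 followed with means from 3.16 to 0.69 CPM per kb, each overlapping the next. In LPS, PER1 (63.1 ± 43.0 CPM per kb) and NFIL3 (54.1 ± 52.0) again led without separating from each other, and CLOCK was last at 1.66 ± 0.31. NFIL3 and the next member in LPS, DBP, did not overlap on this scale.

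**Figure D4:**
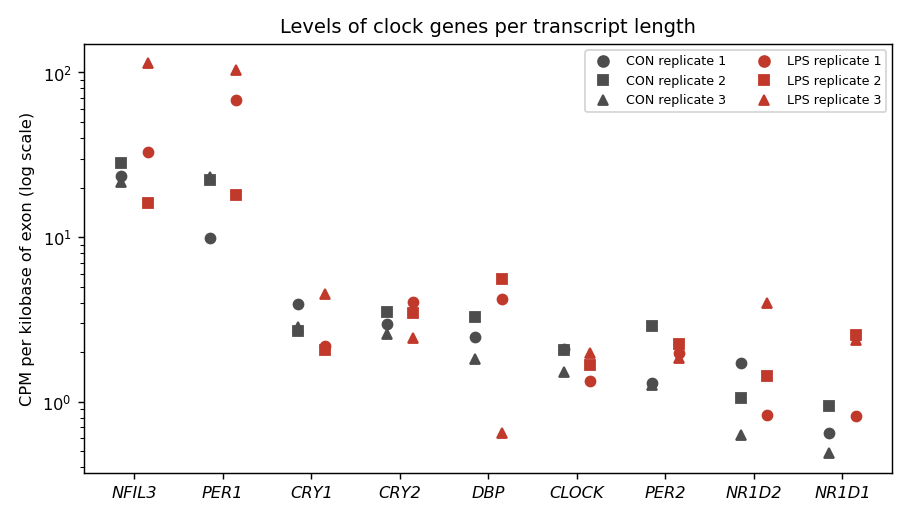
Level of each clock gene per kilobase of exon length on a log axis, ordered by the CON mean, with 1 point per library, CON in grey and LPS in red. NFIL3 and PER1 lie at or above 9.86 CPM per kb in every library, while the remaining members lie at or below 5.57.

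The other genes of the core loop gave no call among 8 tested of 12 listed symbols. The list includes ARNTL and ARNTL2, older names of BMAL1 and BMAL2 that had no row. Of the 8 tested, 3 had a higher and 5 a lower estimate, with a median log2 fold change of -0.05 against 0.01 over all genes. At an unadjusted p under 0.05 there was 1, BHLHE40, and DESeq2 called 0. BHLHE40, a repressor that competes for the E-boxes bound by CLOCK, stood at 24.1, 29.4 and 20.0 CPM in CON and at 45.6, 15.2 and 247 CPM in LPS. It showed the same order of LPS libraries as NFIL3, with replicate 3 highest and replicate 2 below the CON range (log2 fold change 2.07, SE 0.83, adjusted p = 0.359 with edgeR). Without LPS replicate 2, edgeR called it at 2.59 (adjusted p = 0.0269), where 7.2% of all genes were called. TIMELESS, which is better known for replication fork stability, gave -0.72 (SE 0.46, adjusted p = 0.560 with edgeR), and CIART, a repressor of CLOCK and BMAL1, gave -0.29 (SE 0.53, adjusted p = 0.852 with edgeR) on a gene model that shares exon bases with other genes on its strand.

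The other proline and acidic amino acid-rich bZIP factors, TEF and HLF, which like DBP activate through D-boxes, were both tested and neither was called by edgeR or DESeq2, or stood under an unadjusted p of 0.05. TEF was at 10.3, 19.8 and 16.7 CPM in CON and at 50.4, 42.9 and 9.76 CPM in LPS, the same arrangement as DBP, with LPS replicates 1 and 2 above and LPS replicate 3 below every CON library (log2 fold change 1.13, SE 0.55, adjusted p = 0.441 with edgeR). HLF was at 32.2, 24.5 and 20.0 CPM in CON and at 18.3, 21.6 and 4.44 CPM in LPS (log2 fold change -0.81, SE 0.52, adjusted p = 0.560 with edgeR). All 3 D-box activators were therefore lowest in LPS replicate 3, the library in which the repressor NFIL3 was highest.

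**Figure D5:**
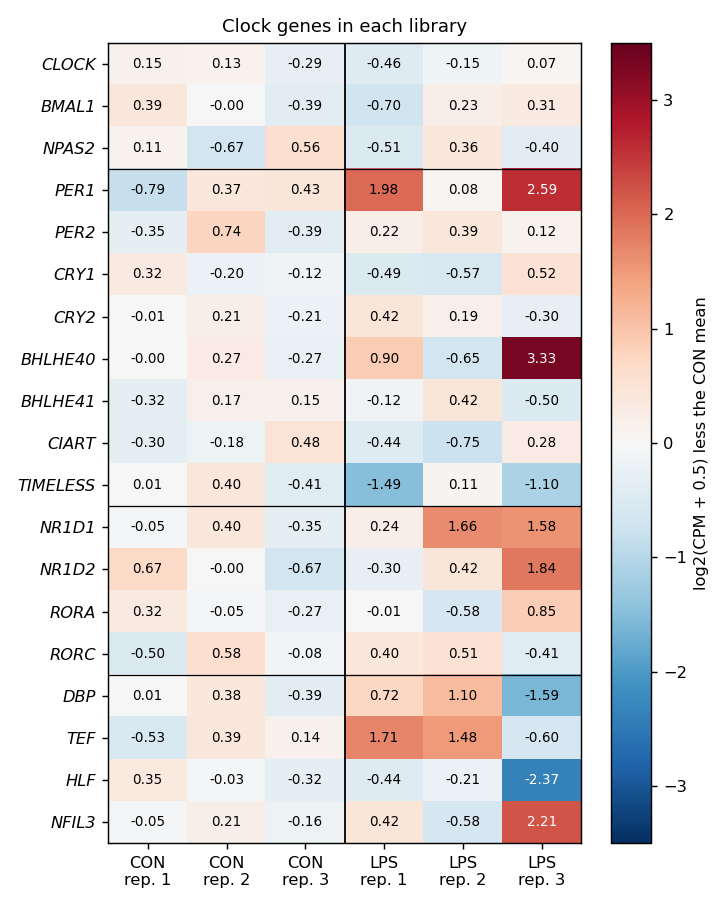
Difference of log2(CPM + 0.5) from the CON mean in each library, for clock members and other core clock genes in 4 blocks (activators, repressors, nuclear receptors, D-box factors), with red above and blue below. In LPS replicate 3, NFIL3 stands at 2.21 and BHLHE40 at 3.33, while DBP, TEF and HLF stand at -1.59, -0.60 and -2.37.

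The enzymes and cofactors that modify clock proteins, 25 tested of 26 listed, had 12 higher and 13 lower estimates, a median log2 fold change of 0.00 and no call by edgeR or DESeq2. At an unadjusted p under 0.05, 3 were higher and 1 was lower, or 16.0% of the list beside 12.5% of all genes. GSK3A, a protein kinase, was at 28.2, 39.1 and 28.8 CPM in CON and at 74.4, 43.5 and 56.1 CPM in LPS (log2 fold change 0.86, SE 0.32, adjusted p = 0.326 with edgeR). It was the 1 gene of the list with every LPS value above every CON value, beside 6.52% of all genes. Its relative GSK3B, named here after its values were seen, gave -0.004 (SE 0.29, adjusted p = 0.998 with edgeR). CSNK1E, the casein kinase that phosphorylates PER proteins, gave 1.42 (SE 0.53, adjusted p = 0.329 with edgeR). WDR5, a histone methyltransferase cofactor associated with PER complexes, gave 0.91 (SE 0.35, adjusted p = 0.338 with edgeR). Without LPS replicate 2, edgeR called CSNK1E at 1.80 (adjusted p = 0.0333) and also KAT2B, an acetyltransferase named here after its values were seen, at -1.98 (adjusted p = 0.0233). In that fit 7.2% of all genes were called.

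Among genes of rhythmic liver metabolism and other clock-controlled outputs, 15 tested of 16 listed had 6 higher and 9 lower estimates and no call by edgeR, at a median of -0.23 on the log2 scale. At an unadjusted p under 0.05, 4 were lower and 0 higher, where 6.33% of all genes were lower and 6.18% higher, and DESeq2 called 2, CYP7A1 and INSIG2, beside 3.16% of all genes. Of these, 4 had every LPS value below every CON value, beside the background of 9.8% given above. CYP7A1, the rate-limiting enzyme of bile acid synthesis and a known D-box target, was at 16.4, 21.2 and 16.0 CPM in CON and at 0.44, 2.29 and 0.27 CPM in LPS. All 3 LPS libraries were low, including LPS replicate 2, and the log2 fold change was -4.25 (SE 0.68, adjusted p = 0.0668 with edgeR). DESeq2 called it at -4.21 (adjusted p = 3.4e-08), and edgeR called it without LPS replicate 2 at -5.73 (adjusted p = 0.000569) and without LPS replicate 3 at -3.60 (adjusted p = 0.0218). With any of the other 4 libraries left out, edgeR gave -4.30 to -3.98 and no call (adjusted p = 0.234 to 0.563).

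INSIG2, which retains the sterol sensor complex in the endoplasmic reticulum, gave -1.83 (SE 0.55, adjusted p = 0.236 with edgeR), with 52.9, 25.3 and 25.7 CPM in CON and 3.49, 17.3 and 8.33 CPM in LPS. FGF21, a fasting hormone of the liver, gave -1.40 (SE 0.47, adjusted p = 0.273 with edgeR), with 66.8, 71.2 and 69.1 CPM in CON and 23.1, 45.3 and 10.7 CPM in LPS. The fourth gene without overlap was PPARA, the fatty acid receptor that activates FGF21, at 67.0 to 79.6 CPM in CON and 27.8 to 57.8 CPM in LPS, named here after its values were seen. Without LPS replicate 2, edgeR called INSIG2 at -2.49 (adjusted p = 0.0172), FGF21 at -2.05 (adjusted p = 0.0156) and PPARA at -1.30 (adjusted p = 0.0403), and in the other direction CDKN1A, a cell cycle inhibitor named here after its values were seen, at 1.83 (adjusted p = 0.0425), where 7.2% of all genes were called. Of the 15 output genes tested, 4 had every LPS value below every CON value and 0 had every LPS value above. The groups overlapped in the rest of that list, CDKN1A included, as they did in the members DBP, NFIL3, NR1D1 and PER1. The difference between the sets was not tested.

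The glucocorticoid-responsive list holds genes tied to the stress hormone that also induces PER1, among them its receptor NR3C1 and the enzyme HSD11B1. It had 15 tested of 19 listed symbols, which include G6PC, an older name of G6PC1 that had no row. There were 9 higher and 6 lower estimates, a median log2 fold change of 0.66 and no call by edgeR or DESeq2. At an unadjusted p under 0.05, 3 of 15 were higher and 0 lower, beside 6.18% and 6.33% of all genes. DUSP1, a phosphatase that inactivates MAP kinases, was at 35.6, 46.7 and 36.9 CPM in CON and at 94.6, 20.5 and 533 CPM in LPS (log2 fold change 2.45, SE 0.93, adjusted p = 0.338 with edgeR). CEBPD, an acute-phase transcription factor, was at 193, 371 and 330 CPM in CON and at 1348, 207 and 737 CPM in LPS (log2 fold change 1.36, SE 0.59, adjusted p = 0.385 with edgeR). ZBTB16, a zinc finger repressor, was at 25.0, 32.8 and 88.3 CPM in CON and at 160, 45.2 and 169 CPM in LPS (log2 fold change 1.35, SE 0.60, adjusted p = 0.392 with edgeR). In DUSP1, CEBPD and ZBTB16, as in PER1, LPS replicates 1 and 3 were above the CON range and LPS replicate 2 was not. Without that library, edgeR called DUSP1 at 2.99 (adjusted p = 0.0175), CEBPD at 1.81 (adjusted p = 0.0259) and SGK1, a kinase named here after its values were seen, at 1.98 (adjusted p = 0.0207), where 7.2% of all genes were called. Complete separation ran the other way in this list, with 0 genes above and 2 below the CON range in every LPS library, beside 6.52% and 9.8% of all genes. These were G6PC1, the enzyme that releases glucose, at 1471 to 1760 CPM in CON and 561 to 1339 CPM in LPS, and HSD11B1, the enzyme that regenerates cortisol, at 322 to 548 CPM in CON and 152 to 307 CPM in LPS, both named after their values were seen. DUSP1 and CEBPD are also known targets of inflammatory signals, and the part of the hormone in these values was not tested.

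The genes most like PER1 over the 6 libraries, by Pearson's r of log2 CPM among 6906 genes with a mean of at least 10 CPM, were GNB1 (r = 0.994), TRAPPC10 (r = 0.994) and MED9 (r = 0.990), and 120 genes were above 0.95. MED9, a Mediator subunit, ran from 24.0 to 44.1 CPM in CON and stood at 104, 39.6 and 114 CPM in LPS, with LPS replicate 2 again inside the CON range. Those most like NR1D1 were CNRIP1 (r = 0.978), MCU (r = 0.970) and MMP14 (r = 0.955), and 5 of 6907 genes were above 0.95. These are descriptions over 6 libraries, in which both the group and the depth differ.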

How the data were processed

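Groups and replicate numbers came from the sample labels. The deposited table holds raw read counts per Ensembl gene that the authors made from the 6 input libraries, with no normalization. CON replicates 1 and 2 carry 2 sequencing entries each in the labels, so their columns were assigned to the CON group alone. The submitters' processing notes name cutadapt 1.9.3 and HISAT2, and list genome builds of chicken and human but not of pig. Coordinates are printed as in the table, and 98.9% of genes that could be compared by symbol overlapped the same gene in Sscrofa11.1. The sources used here do not give the counting program or its strand setting. The immunoprecipitated libraries were not analysed here.

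Genes were filtered with filterByExpr (minimum count 10), scaled by TMM and tested in edgeR 4.0.16 (R 4.3.3) with robust quasi-likelihood dispersions, and p-values were adjusted by Benjamini-Hochberg over all genes tested. A gene was called at an adjusted p under 0.05 and a fold above 1.5. All 9 members with a row passed the filter. Intervals are at 95%. CPM uses TMM-scaled library sizes. Ratios within a library used counts plus 0.5 and a two-sided exact permutation test. DESeq2 1.42.0, limma 3.58.1 (voom), other scalings and filters, a replicate block and omission of each library were alternatives. The edgeR code was first tested on simulated data. The labels name the replicates as separate samples, and p-values measure only the spread between these.

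The members and gene lists were chosen from general knowledge with earlier results of these data known. The text names all members, the called genes of each list or else up to 3 with the smallest unadjusted p, and the 3 genes most correlated with PER1 and with NR1D1. A search of promoters for E-box and D-box motifs was planned and not run, because no sequence was used here.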

Additional observations from a re-analysis of the deposited data

How the results depend on the processing

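With 3 libraries a group and 2 of them standing apart, the number of genes called over the whole table moved strongly. Calls higher and lower in LPS numbered 7 and 0 as reported, 8 and 1 with RLE factors, 11 and 1 with total counts, 536 and 349 without the filter on low counts, 0 and 0 when 10 counts were asked for in every library, 258 and 146 with DESeq2, and 2 and 0 with limma-voom. Omission of single libraries, under edgeR and DESeq2, gave 0 to 799 higher and 0 to 750 lower, with both maxima from DESeq2 without LPS replicate 2, a choice of tool added after seeing the data. The number of clock members called was 0 as reported, 1 with DESeq2 (PER1, 1.82), 1 without the filter (PER1, 1.75) and 0 to 2 with a library left out. The replicate numbers did not pair the samples (correlations of same-numbered deviations -0.26, 0.22 and 0.03), and a replicate block gave 42 higher and 9 lower with 0 members called.

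Over the same omissions, log2 fold changes ran from 1.24 to 2.26 for PER1, -0.036 to 0.69 for PER2, -0.56 to 0.15 for CRY1, -0.038 to 0.36 for CRY2, -0.30 to 0.000276 for CLOCK, -0.15 to 1.02 for DBP and 0.012 to 1.62 for NFIL3. DBP was -0.27 with limma-voom. Log2 ratios differed by -1.06 to 1.88 for NFIL3 to DBP and by -0.86 to 0.026 for CRY1 to CRY2. Scaling by total counts moved the median of all genes to -0.12, and relative to it PER1 was at 1.67 and NFIL3 at 0.93. Genes with few reads are limited by counting error as well as by the spread between libraries. They include NR1D1 and DBP, and also NR1D2 and CRY1, which fell to 20 and 38 reads in LPS replicate 1. The causes of these shifts were not tested.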

Other observations

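Markers of other liver cell types were read beside the clock genes. Of 8 Kupffer cell or macrophage markers tested, 0 had a higher and 8 a lower estimate in LPS, at a median of -0.48 on the log2 scale, and their summed level was 1830 to 2950 CPM in CON and 1247, 2001 and 1741 CPM in LPS replicates 1 to 3. Of 6 endothelial markers, 1 was higher and 5 were lower (median -0.46). T or NK cell markers had 2 higher and 5 lower estimates (median -0.20), and B or plasma cell markers had 1 higher and 4 lower (median -0.22). Cholangiocyte or stellate cell markers had 5 higher and 4 lower (median 0.03). The 2 red blood cell or platelet markers tested were both higher in LPS (median 1.19), with a summed level of 70.3 to 95.6 CPM in CON and 224, 88.0 and 320 CPM in LPS. None of the genes in these 6 lists was called by edgeR. DESeq2 called KRT7, a bile duct keratin, at 1.65 (adjusted p = 0.0317) and HBB, a haemoglobin chain, at 1.63 (adjusted p = 0.0201), where 3.16% of all genes were called. Both were named after their values were seen. DESeq2 gave no adjusted p for the endothelial marker CLEC4G. Under an unadjusted p of 0.05 by edgeR stood 12.5% of all genes. Of the markers, 2 macrophage ones were lower there, and 2 cholangiocyte or stellate cell ones and 1 red blood cell or platelet one were higher. Endothelial markers split, with 1 higher and 1 lower, and 0 lymphocyte markers stood under that value.

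Neutrophil markers did not follow the split that PER1 showed. S100A8, a calcium-binding protein abundant in the neutrophil cytosol, was at 0.31 to 0.40 CPM in CON and at 14.2, 5.07 and 25.7 CPM in LPS (log2 fold change 5.34, SE 0.69, adjusted p = 0.0371 with edgeR), and CSF3R, the receptor of granulocyte colony-stimulating factor, was at 5.90 to 16.2 CPM in CON and at 99.0, 46.8 and 100.4 CPM in LPS. LPS replicate 2 was above the CON range in both, whereas its PER1 level of 101 CPM lay between the CON values of 55.1 and 129 CPM.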
